A study of Mus musculus with 60 samples.

Results

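Cd302, Cnp, Fgf10, Marcksl1, Nid1, Rhox5 and Slc12a7 were expressed in every library of wild-type C3H10T1/2 cells. In 11 of the 12 libraries labelled Tet1-KO they were at or near 0. In the remaining library, Tet1-KO day 6 replicate 3, 5 of the 7 were on. The 7 genes are among the 24982 listed in each of the 2 deposited tables of FPKM (fragments per kilobase of transcript, scaled to the mapped fragments of the library, a level per length). They were chosen on these values: at least 2 FPKM in each of the 12 wild-type libraries and at most 0.5 FPKM in each of the 3 Tet1-KO libraries of day 0. Of 8028 genes that met the first condition, these 7 met the second, and 17 did with a floor of 1 FPKM in place of 2. The highest Tet1-KO day 0 value was 0.31 FPKM for Marcksl1 and for Slc12a7, just inside the limit. Just outside it were Col15a1 with 0.57 FPKM, Cyp2f2 with 0.61 and Ctla2a with 0.76. The level of the 7 genes in wild-type cells and their absence at Tet1-KO day 0 are therefore given as a description, without a test.

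The study followed polyadenylated RNA of C3H10T1/2 cells, a mouse mesenchymal line that can form adipocytes, through induced differentiation. For 48 h the cells were kept in 10% serum with insulin (10 µg/ml), rosiglitazone (1 µM), dexamethasone (1 µM), the phosphodiesterase inhibitor IBMX (0.5 mM) and T3 (1 nM). From day 2 the cells received serum and 5 µg/ml insulin, also per the labels' protocols. There were 3 libraries for each population at days 0, 2, 4 and 6, which makes 20 groups. The populations were WT and Tet1-KO in the first table (24 libraries) and 23-NC, 23-Tet1 and 23-CATA in the second (36 libraries). The labels do not say how Tet1 was disrupted, whether Tet1-KO is 1 clone, what 23, NC and CATA stand for, or which cells the 3 populations of the second table were made from. They also do not say that replicates were separate cultures, so p-values measure the spread between these libraries, which may be technical.

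TET1 is a dioxygenase that oxidises 5-methylcytosine, a first step towards removing methyl groups from DNA, and it acts mostly where CG dinucleotides are dense. Methylation of CG sites in a promoter is commonly found together with a silent gene, and some germline genes, Rhox5 among them, are known to be kept silent in somatic cells in this way. Methylation itself was not analysed here. The 7 genes belong to no common pathway. Fgf10 encodes a secreted fibroblast growth factor that signals through FGFR2 and is known from lung, limb and fat development. Nid1 encodes nidogen, which links laminin to type IV collagen in basement membranes. Slc12a7 encodes the potassium-chloride cotransporter KCC4, and Cd302 a C-type lectin receptor of the cell surface. Marcksl1 encodes an actin-binding, membrane-attached substrate of protein kinase C. Cnp encodes a cyclic nucleotide phosphodiesterase best known from myelin, and Rhox5 a homeobox protein of the X-linked reproductive homeobox cluster.

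At day 0 Tet1 itself averaged 1.01 ± 0.121 FPKM (SD, n = 3) in WT and 0.25 ± 0.01 in Tet1-KO. From day 2 to day 6 no WT or Tet1-KO library exceeded 0.11 FPKM, so after induction Tet1 did not separate the libraries of the 2 labels. Depth, read from the step between low FPKM values, was 11.2 to 18.6 M fragments in 59 of 60 libraries, and at the median depth of 14.7 M 1 fragment on a transcript of 2000 bases is worth 0.034 FPKM. A value of 0.05 or 0.1 FPKM thus rests on few fragments. In Tet1-KO day 6 replicate 2 that step gave 24.6 M, outside the range of the other 59 libraries, and was not relied on. Only 11805 genes exceeded 0 in that library (13837 to 14954 elsewhere in its table), so its values of 0 carry less weight. Its Gapdh stood at 84.46 FPKM, against 2301 and 6484 in replicates 1 and 3. Its Rpl41 stood at 64290 FPKM against 12710 and 11140, and its Actb at 969 against 1235 and 1590. The library labelled Tet1-KO day 6 replicate 3 stood apart from all other Tet1-KO libraries in 5 of the 7 genes and is given separately throughout. In bulk RNA, fewer cells that express a gene and less RNA per cell cannot be told apart.

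Promoters of 4 of the genes are shown because the genes differ in how many CG dinucleotides surround their start. Each is RefSeq sequence of build GRCm38.p6, from 250 bases before to 50 bases after the annotated start, 5′ to 3′ on the gene's strand, with every CG in capitals. Nid1 and Marcksl1 were on in all libraries of the second table, whereas Cd302 and Rhox5 were low in 23-NC. A link between CG number and these levels was not tested. The windows are chr13:13437352-13437651 on the plus strand for Nid1, chr4:129513331-129513630 on the plus strand for Marcksl1, chr2:60284435-60284734 on the minus strand for Cd302 and chrX:37754358-37754657 on the plus strand for Rhox5.
Nid1: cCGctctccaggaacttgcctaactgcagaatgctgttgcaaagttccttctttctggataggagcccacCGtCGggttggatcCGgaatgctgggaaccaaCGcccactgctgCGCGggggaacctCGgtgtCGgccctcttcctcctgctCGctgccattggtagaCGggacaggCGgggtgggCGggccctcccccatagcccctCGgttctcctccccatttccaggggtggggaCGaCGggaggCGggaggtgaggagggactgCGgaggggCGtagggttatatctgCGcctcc
Marcksl1: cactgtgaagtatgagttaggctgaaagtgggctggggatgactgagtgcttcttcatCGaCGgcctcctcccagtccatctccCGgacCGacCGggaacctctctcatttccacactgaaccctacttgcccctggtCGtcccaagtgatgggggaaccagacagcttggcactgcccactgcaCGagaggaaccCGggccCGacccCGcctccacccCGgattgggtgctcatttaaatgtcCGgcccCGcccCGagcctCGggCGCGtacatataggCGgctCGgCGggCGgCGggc
Cd302: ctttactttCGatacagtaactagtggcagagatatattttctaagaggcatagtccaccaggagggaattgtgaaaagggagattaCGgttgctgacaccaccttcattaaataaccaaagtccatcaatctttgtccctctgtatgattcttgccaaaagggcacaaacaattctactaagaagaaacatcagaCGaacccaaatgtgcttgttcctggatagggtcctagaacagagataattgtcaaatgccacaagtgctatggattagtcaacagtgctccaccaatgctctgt
Rhox5: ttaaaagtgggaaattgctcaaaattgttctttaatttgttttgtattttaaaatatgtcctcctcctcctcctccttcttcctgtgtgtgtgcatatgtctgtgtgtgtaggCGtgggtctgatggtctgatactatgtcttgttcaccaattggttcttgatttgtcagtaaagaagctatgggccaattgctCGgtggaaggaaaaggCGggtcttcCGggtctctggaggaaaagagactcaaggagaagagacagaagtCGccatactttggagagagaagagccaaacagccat

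The windows of Nid1 and Marcksl1 held 20 and 22 CG, that of Cd302 held 3 and that of Rhox5 held 5. Over the promoters of 9353 genes tested in the first table the median was 21 CG, with quartiles of 14 and 29, and 99.5% held at least 1. As many CG as in Cd302 or more were found in 96.7% of these promoters, and as many as in Rhox5 or more in 93%. The other 3 genes had 10 (Fgf10), 17 (Cnp) and 23 (Slc12a7, with 27 in a second annotated window). The group thus ranged from among the poorest promoters in CG to slightly above the median. For Fgf10, Rhox5 and Slc12a7 the RefSeq start lay 44908, 50234 and 30566 bases from the start of the GENCODE gene, so another start may be the one in use. The motif searched was CG, which reads the same on both strands, and its count describes the letters in these windows only.

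In WT cells at day 0 the 7 genes ranged from a mean of 3.94 FPKM (Rhox5) to 50.7 (Marcksl1). Marcksl1 was highest, with 54.56, 48.71 and 48.95 FPKM in the 3 libraries. Nid1 followed with 19.29, 25.54 and 24.86 FPKM. Both genes of the secreted or matrix group were thus clearly expressed, since Fgf10 gave 9.98, 10.88 and 10.35 FPKM. Cnp gave 11.39, 11.46 and 11.46 FPKM, just above Fgf10 without overlap. The membrane proteins Cd302, with 6.32, 4.83 and 4.58 FPKM, and Slc12a7, with 4.51, 4.94 and 5.40, overlapped each other. Rhox5 was lowest with 4.74, 3.70 and 3.39 FPKM, and it overlapped both of them. The order of levels was therefore firm for the upper 4 genes and within the spread for the lower 3.

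At Tet1-KO day 0 none of these 21 values passed 0.31 FPKM. Nid1 gave 0.07, 0.08 and 0.05 FPKM, and its WT mean was 348 times the Tet1-KO mean. Marcksl1 gave 0.29, 0.30 and 0.31 FPKM, a ratio of 169 in spite of a background that was the same in each library. Rhox5 was listed at 0, 0.10 and 0. For Cnp, Fgf10 and Cd302 the WT mean was 111, 108 and 54.2 times the Tet1-KO mean, and no value of the 3 genes passed 0.18 FPKM. The smallest ratio was 20.3, for Slc12a7, which kept 0.26, 0.16 and 0.31 FPKM. These ratios rest on few fragments in the Tet1-KO libraries.

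**Figure D1:**
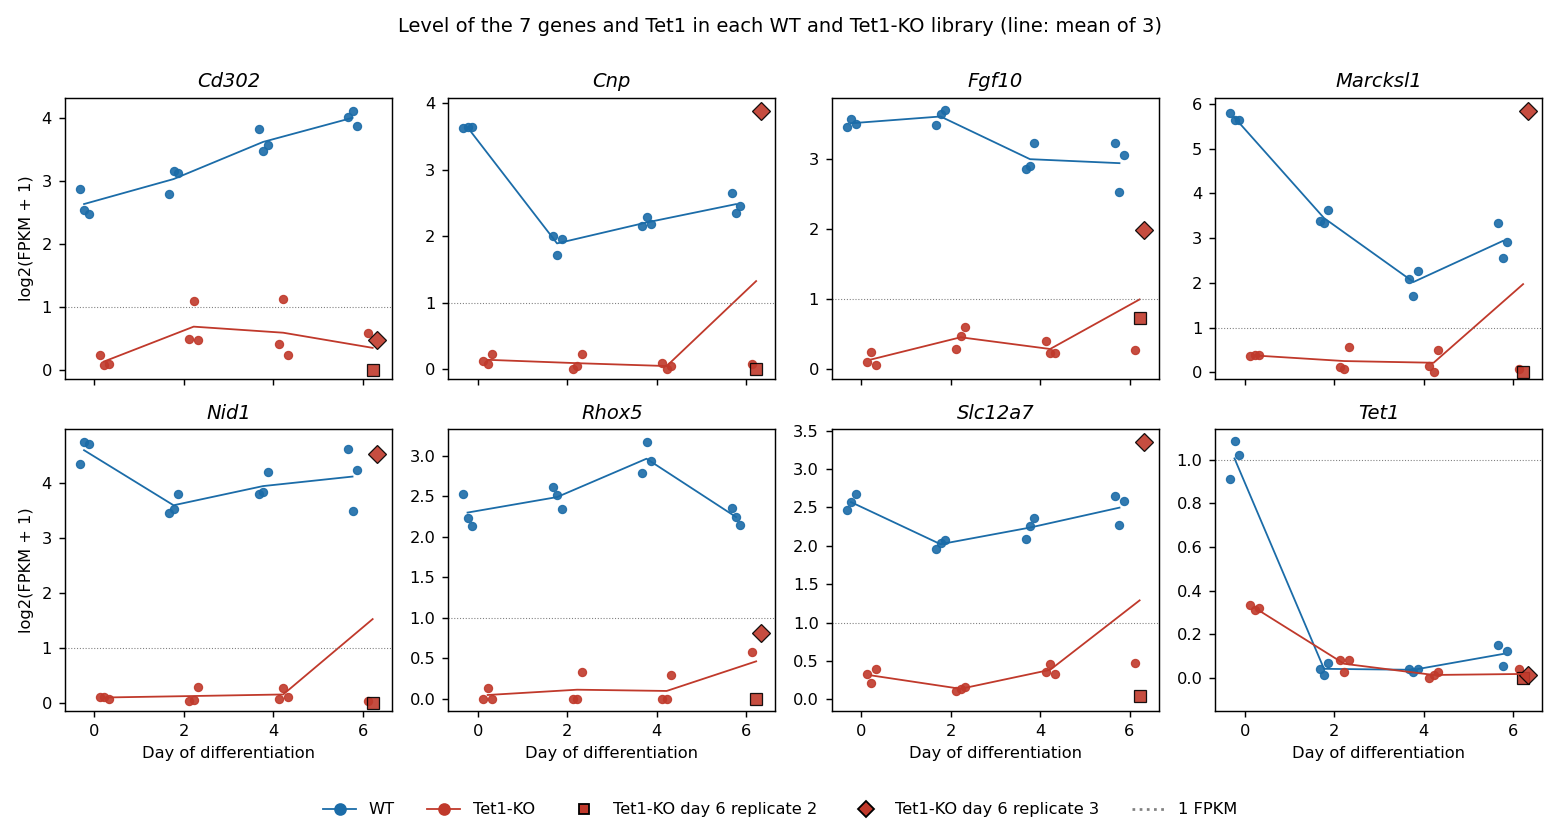
Level of the 7 genes and Tet1 in each library of the first table, as log2(FPKM + 1) against day of differentiation; points are libraries, lines join the means of 3, and the dotted line marks 1 FPKM. WT points lie above the dotted line on all days in the 7 genes, and of the Tet1-KO day 6 libraries replicate 3 (diamond) lies far above replicates 1 and 2 for Cnp, Marcksl1, Nid1 and Slc12a7.

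Apart from day 6 replicate 3, the genes stayed low in the Tet1-KO libraries after induction. The 11 Tet1-KO libraries other than that one include the 3 of day 0, whose values the choice had held at 0.5 FPKM or less. Of the 77 values in these 11 libraries, 14 were 0 and 2 reached 1 FPKM. Both belonged to Cd302, which gave 0.40, 1.13 and 0.39 FPKM at day 2 and 0.33, 1.18 and 0.17 at day 4. In the 12 WT libraries, for which the choice had set a floor of 2 FPKM, all 84 values were between 2.27 and 54.56 FPKM. Nid1 gave at most 0.21 FPKM in those 11 libraries, Cnp at most 0.17, Marcksl1 at most 0.48, Rhox5 at most 0.49, Slc12a7 at most 0.39 and Fgf10 at most 0.65. The highest Fgf10 value came from Tet1-KO day 6 replicate 2, in which 5 of the other genes were listed at 0 and Slc12a7 at 0.03 FPKM.

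Differences between Tet1-KO and WT at days 2, 4 and 6 were tested with limma on log2(FPKM + 1), with Benjamini-Hochberg adjustment over all 11911 genes of the table that reached 1 FPKM in 3 libraries or more. All 7 genes passed that filter, and they passed through their WT values. The WT values of these days also entered the choice of the genes, as a floor of 2 FPKM, and the Tet1-KO values did not. The counts and p-values of these comparisons are thus fixed in part by that choice. The shares of all genes are printed beside them and nothing is read from the contrast; the Tet1-KO levels are the values that the choice did not use. Differences are given relative to the median difference of all genes tested, which was 0.17, 0.09 and −0.20 at days 2, 4 and 6, and the scale understates changes of weakly expressed genes.

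At day 2 all 7 genes were called lower in Tet1-KO (6.76% of all genes tested were), a count fixed in part by the choice. Nid1, which averaged 0.09 FPKM against 11.1 in WT, was lower by 3.63 ± 0.71 log2 units (SE, limma adjusted p = 0.00275). Fgf10, with 0.22, 0.38 and 0.51 FPKM against 10.18, 11.51 and 11.95 in WT, differed by −3.32 ± 0.28 (limma adjusted p = 7.05e-07). Rhox5 differed by −2.54 ± 0.18 (limma adjusted p = 7.49e-08), and 2 of its 3 Tet1-KO libraries were at 0. Cnp had the weakest call, at −1.97 ± 0.59 (limma adjusted p = 0.0338), and it was lost when any single library of day 2 was left out (adjusted p of 0.0522 to 0.118). Its error came from a spread shared by all groups of the table: with Tet1-KO day 6 replicates 2 and 3 left out of the fit, the same difference had an SE of 0.11 (limma adjusted p = 2.64e-09).

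At day 4, 6 of the 7 genes were called lower (6.22% of all genes were), again a count fixed in part by the choice. Nid1 differed by −3.88 ± 0.71 (limma adjusted p = 0.00192) and Cd302, whose WT libraries had meanwhile reached 13.12, 10.08 and 10.84 FPKM, by −3.12 ± 0.22 (limma adjusted p = 3.11e-08). Marcksl1 was not called: it gave 0.11, 0 and 0.41 FPKM in Tet1-KO and 3.27, 2.27 and 3.77 in WT, a difference of −1.89 ± 0.90 (limma adjusted p = 0.179) without overlap. Without Tet1-KO day 6 replicates 2 and 3 in the shared fit Marcksl1 was called as well (limma adjusted p = 4.18e-06). The calls of Cnp and Slc12a7 were lost in most fits that left out 1 library of day 4, with limma adjusted p of at most 0.0768.

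Day 6 turned on 1 library. In Tet1-KO replicates 1 and 2 Marcksl1 stood at 0.05 and 0 FPKM, and in replicate 3 at 56.42, above the WT values of 9.17, 4.89 and 6.50. Nid1 stood at 0.02 and 0 FPKM in the first 2 and at 22.06 in replicate 3, within the WT range of 10.20 to 23.38. Cnp stood at 0.06 and 0 FPKM and then at 13.81, and Slc12a7 at 0.39 and 0.03 and then at 9.21, each above all WT libraries of that day. Fgf10 was intermediate in replicate 3, with 2.96 FPKM against a WT mean of 6.83. Cd302 and Rhox5 remained low in it, with 0.38 and 0.75 FPKM against WT means of 15.1 and 3.74. As a share of the WT day 6 mean, replicate 3 held 823% for Marcksl1, 300% for Cnp, 197% for Slc12a7, 129% for Nid1, 43.3% for Fgf10, 20.1% for Rhox5 and 2.52% for Cd302.

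With all 3 Tet1-KO libraries of day 6 in the fit, 5 of the 7 genes were called lower than in WT, against 29.7% of all genes, a high background. Cnp (−0.96 ± 0.59, limma adjusted p = 0.116) and Marcksl1 (−0.77 ± 0.90, limma adjusted p = 0.393) were not called. Without replicate 3, the library in which 5 of the genes were on, all 7 were called. That library was left out for its values in these genes, and replicate 2, whose values of 0 carry less weight, remained. The calls without it are thus fixed in part by the choice, and nothing is read from them. Marcksl1 was then at −2.62 ± 0.21 (limma adjusted p = 1.72e-08), Cnp at −2.16 ± 0.12 (limma adjusted p = 1.38e-10) and Nid1 at −3.81 ± 0.23 (limma adjusted p = 7.47e-10). Slc12a7 moved from −1.01 ± 0.48 (limma adjusted p = 0.0484) to −1.96 ± 0.14 (limma adjusted p = 3.32e-09). Cd302 was called with replicate 3 (−3.46 ± 0.22, limma adjusted p = 1.58e-09) and at much the same size without it (−3.43 ± 0.25). When replicate 1 or replicate 2 was left out instead, the difference of Marcksl1 relative to the median gene was 0.27 and 0.02, and −0.02 and 0.02 as fitted, and neither was called.

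The same library also held other genes that were off in Tet1-KO at day 0. In all, 49 genes were at 2 FPKM or more in every WT day 0 library and at 0.5 or less in every Tet1-KO day 0 library, a set that includes the 7. Of these 49, 0 to 2 reached 1 FPKM in each of the 8 other Tet1-KO libraries of days 2 to 6, and 26 did in Tet1-KO day 6 replicate 3, 5 of the 7 and 21 of the others. WT day 6 libraries had 28, 22 and 26 of them at 1 FPKM or more, and WT libraries of days 2 and 4 had 14 to 17. Of the 26 genes on in replicate 3, 16 were also on in every WT day 6 library, which is 61.5% of the 26 and 76.2% of the 21 on in WT. With genes on in every 23-NC day 6 library the overlap was 22 genes, 84.6% of the 26 and 95.7% of the 23. All 12 of the 49 genes that were on in every library of the second table were on in replicate 3.

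**Figure D2:**
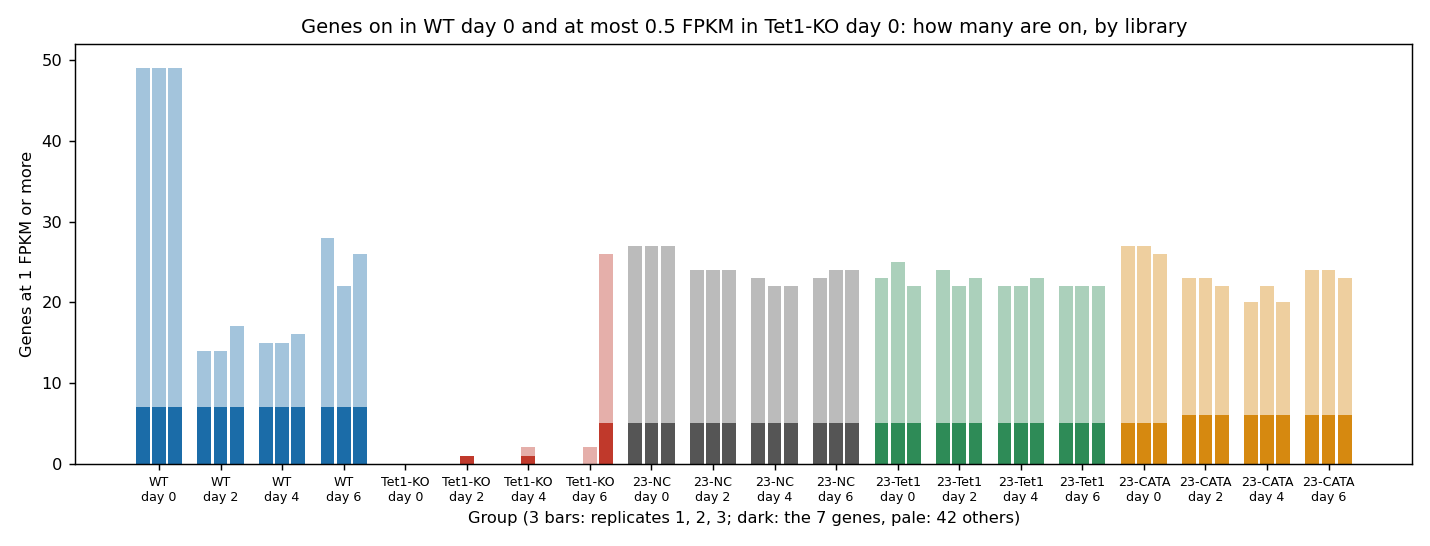
Number of the 49 genes (on in WT day 0, at most 0.5 FPKM in Tet1-KO day 0) at 1 FPKM or more in each of the 60 libraries, with 3 bars per group for replicates 1 to 3; the dark part counts the 7 genes and the pale part the 42 others. Tet1-KO bars are at 0 to 2 except day 6 replicate 3 at 26, and second table bars lie between 20 and 27.

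In marker sums that library stood near the other Tet1-KO libraries of day 6. In a count over 6 genes, given last, it was within the WT counts of day 6. Summed FPKM of 15 adipocyte markers, among them Adipoq, Fabp4 and Plin1, was 30873 in replicate 3, beside 33159 and 34616 in replicates 1 and 2 and 70929 to 75522 in the WT libraries of day 6. Summed FPKM of 15 mesenchymal progenitor markers was 18820, beside 17556 and 14133 in the other 2 and 1903 to 4098 in WT. Of 6 genes with the opposite pattern at day 0, at most 0.5 FPKM in WT and at least 2 in Tet1-KO, 2 were at 1 FPKM or more in replicate 3, beside 6 and 4 in the other 2 and 3, 2 and 3 in WT day 6. Whether a mix of cells or of libraries took part in these values was not tested.

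In WT cells the 7 genes did not share a course after induction. The choice asked for 2 FPKM in all WT libraries, so a gene that fell below that level could not be among them. Marcksl1, at 50.7 ± 3.31 FPKM before induction, fell to 9.95 ± 1.17 at day 2 and 3.10 ± 0.764 at day 4, and stood at 6.85 ± 2.16 at day 6. Its differences from day 0 were −1.85 ± 0.90, −3.16 ± 0.90 and −2.47 ± 0.90 relative to medians of −0.39, −0.52 and −0.29 over all genes (limma adjusted p = 0.0359, 0.0013 and 0.0133). The day 2 call of Marcksl1 was lost when any WT library of days 0 or 2 was left out (limma adjusted p of 0.0604 to 0.0785), and with median-ratio scaling, without a filter and with a pseudocount of 0.1 FPKM. Cnp fell from 11.4 ± 0.0404 to 2.72 ± 0.387 FPKM at day 2 (limma adjusted p = 0.0151) and to 3.62 ± 0.22 at day 4 (limma adjusted p = 0.0389). The day 2 call of Cnp was lost under quantile normalisation, median-ratio scaling and a pseudocount of 0.1 FPKM, and its day 4 call under these, without a filter and when any WT library of days 0 or 4 was left out (limma adjusted p of 0.0688 to 0.081). At day 6 Cnp was not called (limma adjusted p = 0.103). Cd302 went the other way and rose from 5.24 ± 0.941 FPKM to 11.4 ± 1.58 at day 4 (1.50 ± 0.22, limma adjusted p = 0.000574) and to 15.1 ± 1.33 at day 6 (1.66 ± 0.22, limma adjusted p = 3.36e-05). Rhox5 rose from 3.94 ± 0.707 to 6.83 ± 1.05 FPKM at day 4 (1.18 ± 0.18, limma adjusted p = 0.00274) and was at 3.74 ± 0.351 at day 6, within the day 0 range.

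Fgf10, Nid1 and Slc12a7 were not called on any day in WT. Nid1 and Slc12a7 nevertheless did not overlap their day 0 libraries at days 2 and 4, and Fgf10 did not at days 4 and 6. The share of all genes without such overlap is not given here. Fgf10 averaged 10.4, 11.2, 7.04 and 6.83 FPKM at days 0, 2, 4 and 6. Nid1 averaged 23.2, 11.1, 14.4 and 17.1, and Slc12a7 4.95, 3.06, 3.73 and 4.69. Of the 7 genes, 0 were called higher on day 2 (18.9% of all genes) and 2 lower (43.2%). On day 4 there were 2 higher (18.1%) and 2 lower (49.2%), and on day 6 there was 1 higher (19.2%) and 1 lower (37.4%). The counts in either direction, 2, 4 and 2, depended on the fit: with Tet1-KO day 6 replicates 2 and 3 left out of the shared spread they were 4, 7 and 5, and with a pseudocount of 0.1 FPKM they were 0, 1 and 1. With any single WT library of the compared days left out the count was 1 at day 2 and 3 at day 4.

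Tet1 differed widely among the populations of the second table, which did not enter the choice of the genes. It was at most 0.12 FPKM in 23-NC, 4.04 to 7.46 in 23-Tet1 and 5.75 to 21.56 in 23-CATA. Cnp, Fgf10, Marcksl1, Nid1 and Slc12a7 were at 1 FPKM or more in all 36 libraries. At day 0 in 23-NC, Nid1 gave 50.09, 80.80 and 80.27 FPKM, Marcksl1 67.76, 50.79 and 46.64, and Slc12a7 12.35, 14.47 and 13.65. Levels of the 2 tables were not tested against each other, since they were deposited as separate tables.

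**Figure D3:**
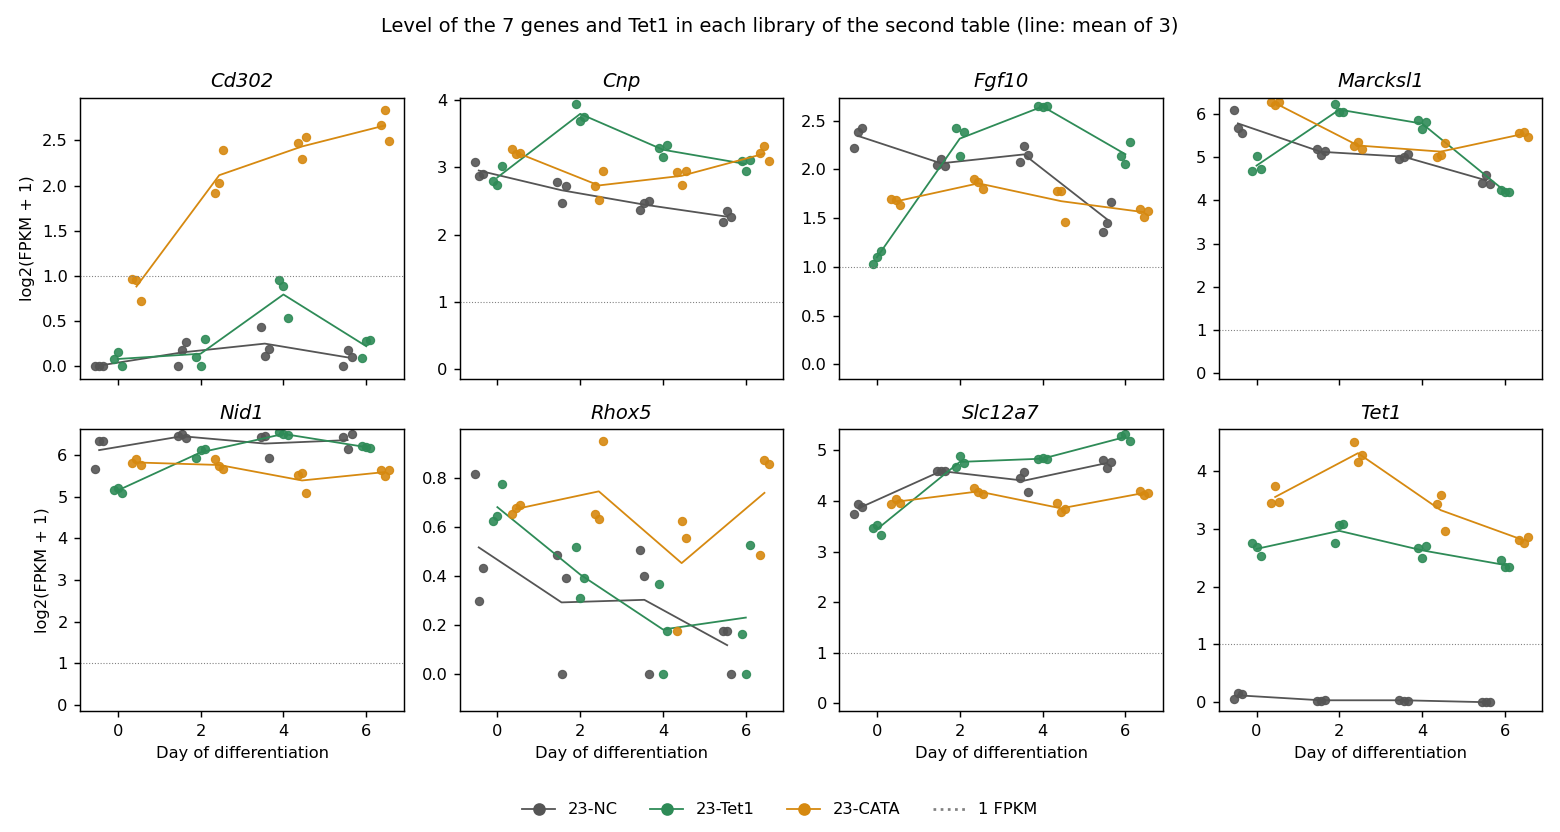
Level of the 7 genes and Tet1 in each library of the second table, as log2(FPKM + 1) against day; points are libraries, lines join the means of 3, and the dotted line marks 1 FPKM. For Cd302 the 23-CATA points rise to 6.13 FPKM at day 6, while 23-NC and 23-Tet1 stay below the line; Rhox5 stays below it in all libraries.

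Cd302 was higher in 23-CATA than in both other populations on all 4 days. It was listed at 0 in the 3 libraries of 23-NC day 0 and was at most 0.35 FPKM in the other 9. In 23-Tet1 it was at most 0.94 FPKM, a value of day 4. In 23-CATA it gave 0.95, 0.93 and 0.65 FPKM before induction and 2.79, 3.09 and 4.24 on day 2. Day 4 libraries held 4.54, 3.91 and 4.80 FPKM of it, and day 6 libraries 5.37, 6.13 and 4.64. Its means in 23-CATA were thus higher on each later day, as they had been in WT, from a lower start. The difference from 23-NC was 0.77 ± 0.12, 1.94 ± 0.12, 2.27 ± 0.12 and 2.56 ± 0.12 log2 units at days 0, 2, 4 and 6 (limma adjusted p = 6.69e-07, 1.37e-14, 1.12e-15 and 1.39e-17). The difference from 23-Tet1 was 0.80 ± 0.12, 2.04 ± 0.12, 1.81 ± 0.12 and 2.46 ± 0.12 (limma adjusted p of at most 1.18e-06). The change from day 0 to day 6 exceeded that of 23-NC by 1.79 ± 0.17 (limma adjusted p = 1.04e-09), and that to day 2 by 1.17 ± 0.17 (limma adjusted p = 4.42e-06), a call lost with a pseudocount of 0.1 FPKM (limma adjusted p = 0.189). In 23-Tet1 Cd302 was called higher than in 23-NC at day 4 alone, with 0.94, 0.85 and 0.44 FPKM against 0.35, 0.08 and 0.14 (0.46 ± 0.12, limma adjusted p = 0.000323).

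Rhox5 remained under 1 FPKM in all 36 libraries and did not pass the filter, so it was not tested there. The highest values were 0.93 FPKM in 23-CATA day 2, 0.76 in 23-NC day 0 and 0.71 in 23-Tet1 day 0. At day 6 the libraries gave 0.13, 0.13 and 0 FPKM in 23-NC, 0.12, 0 and 0.44 in 23-Tet1, and 0.40, 0.83 and 0.81 in 23-CATA. The lowest WT library, by contrast, held 3.39 FPKM. Cd302 and Rhox5, the 2 genes that were low in 23-NC, were also the 2 that remained low in Tet1-KO day 6 replicate 3.

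The differences between 23-Tet1 and 23-NC changed with the day. At day 0, 4 of the 6 genes tested were called lower, against 23.5% of all 12231 genes tested in that table, and none was called higher (37.8% of all genes were). Fgf10 gave 1.05, 1.14 and 1.24 FPKM against 3.66, 4.22 and 4.37 in 23-NC, a difference of −1.34 ± 0.09 (limma adjusted p = 5.03e-13). Marcksl1 gave 24.58, 31.60 and 25.50 FPKM against 67.76, 50.79 and 46.64 (−1.08 ± 0.10, limma adjusted p = 1.26e-09). Nid1 gave 34.60, 36.26 and 33.03 against 50.09, 80.80 and 80.27 (−1.07 ± 0.14, limma adjusted p = 6.06e-07), and Slc12a7 differed by −0.51 ± 0.08 (limma adjusted p = 3.05e-05). Cnp did not pass the test at day 0, with 6.23 ± 0.739 FPKM against 6.75 ± 0.598 (limma adjusted p = 0.387).

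At day 2, 4 of the 6 were called higher in 23-Tet1 (38.7% of all genes) and Nid1 lower (25.2%). Cnp gave 14.43, 11.86 and 12.48 FPKM against 5.90, 4.56 and 5.57 (1.04 ± 0.10, limma adjusted p = 4.8e-11). Marcksl1 gave 74.16, 65.16 and 65.40 against 35.69, 32.06 and 34.54 (0.88 ± 0.10, limma adjusted p = 1.14e-09). The calls of Fgf10 (0.16 ± 0.09, limma adjusted p = 0.0135) and Slc12a7 (0.09 ± 0.08, limma adjusted p = 0.0399) were small. Both were lost under quantile normalisation and median-ratio scaling, and in some fits with a library left out. At day 4, 5 of the 6 were called higher, Nid1 being the exception, against 35% of all genes, and at day 6 Cnp, Fgf10 and Slc12a7 were higher (36%) and Marcksl1 lower (29%). The day 2 call of Nid1 was lost without 23-Tet1 day 2 replicate 1. The day 6 call of Marcksl1 was lost without 23-NC day 6 replicate 2, without 23-Tet1 day 6 replicate 2 or 3, and without a filter. Slc12a7 reached 38.20, 38.88 and 35.60 FPKM in 23-Tet1 day 6, its highest level in that table, beside 27.22, 24.20 and 26.49 in 23-NC.

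The change from day 0 differed between 23-Tet1 and 23-NC. From day 0 to day 2 it was more positive in 23-Tet1 for 5 of the 6 genes, all but Cd302, against 27% of all genes (26.9% were more negative). From day 0 to day 6 it was more positive for the same 5, against 29.1% (32.3% more negative). The excess at day 2 was 1.96 ± 0.14 log2 units for Marcksl1, 1.50 ± 0.12 for Fgf10 and 1.24 ± 0.14 for Cnp (limma adjusted p of at most 1.56e-08). It was smaller for Slc12a7 (0.59 ± 0.11, limma adjusted p = 3.16e-05) and for Nid1 (0.58 ± 0.20, limma adjusted p = 0.0139, lost without 23-NC day 0 replicate 2 or 3, at 0.0536 and 0.0513). The 2 changes use the same day 0 libraries.

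In 23-CATA the genes parted company. At day 0, Cd302, Cnp and Marcksl1 were called higher than in 23-NC (31.6% of all genes were) and Fgf10 lower (11.7%), with a median difference over all genes of 0.11. Fgf10 gave 2.24, 2.22 and 2.10 FPKM against 3.66, 4.22 and 4.37 in 23-NC (−0.78 ± 0.09, limma adjusted p = 2.86e-07). The call of Cnp (0.16 ± 0.10, limma adjusted p = 0.029) was lost under both scalings, without a filter and in some fits with a library left out. At day 2, Cd302 was higher (34.3%) and Fgf10, Nid1 and Slc12a7 lower (30.7%). The call of Fgf10 was lost with a pseudocount of 0.1 FPKM, without a filter and in most fits with a library left out. At day 4, Cd302 and Cnp were higher (28.9%) and the same 3 lower (39.9%). At day 6, Cd302, Cnp and Marcksl1 were higher (38%) and Nid1 and Slc12a7 lower (36.4%). Nid1 gave 49.30, 44.24 and 48.72 FPKM in 23-CATA day 6 against 85.60, 70.19 and 89.79 in 23-NC (−0.78 ± 0.14, limma adjusted p = 1.38e-05). Marcksl1 gave 46.15, 47.45 and 43.79 against 20.35, 23.16 and 19.99 (1.06 ± 0.10, limma adjusted p = 8.35e-11). The matrix gene Nid1 and the cotransporter Slc12a7 were thus lower in 23-CATA from day 2 on, and Cnp and Marcksl1 were higher by day 6.

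**Figure D4:**
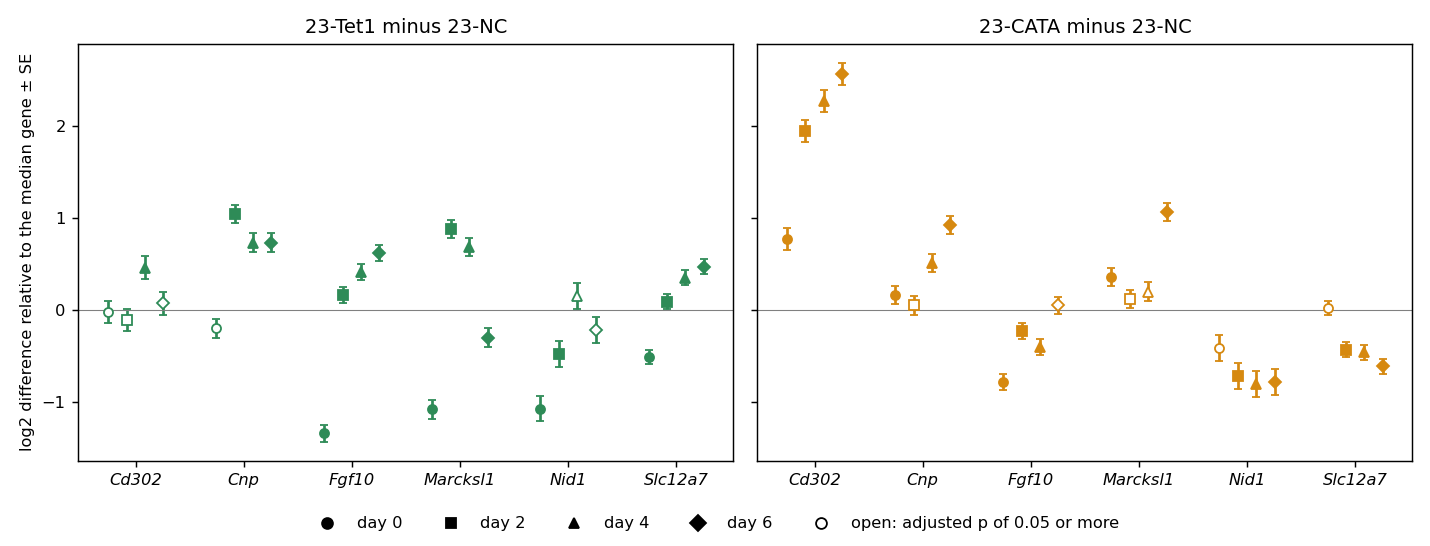
Difference of mean log2(FPKM + 1) from 23-NC, relative to the median gene, for the 6 genes tested in the second table, with 23-Tet1 on the left and 23-CATA on the right; bars are SE, symbols are days, and open symbols have an adjusted p of 0.05 or more. Cd302 rises to 2.56 in 23-CATA, and Fgf10, Marcksl1, Nid1 and Slc12a7 are below 0 at day 0 in 23-Tet1.

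Set directly against 23-Tet1, 23-CATA was higher for all 6 genes at day 0 and lower for none (32.9% and 31.3% of all genes), with Marcksl1 at 75.8 ± 1.92 FPKM against 27.2 ± 3.82 (1.44 ± 0.10, limma adjusted p = 1.75e-13). The day 0 call of Fgf10 was lost under quantile normalisation (limma adjusted p = 0.0811). At day 2, Cd302 was higher (30.3%) and Cnp, Fgf10, Marcksl1 and Slc12a7 lower (37.1%). At day 4, Cd302 was higher (27.6%) and the other 5 lower (46.6%), with a median over all genes of −0.16, and Cnp was then not called under either scaling. At day 6, Cd302 and Marcksl1 were higher (31.9%) and Fgf10, Nid1 and Slc12a7 lower (33.8%). Slc12a7 showed the widest gap among the latter, at 16.9 ± 0.44 FPKM against 37.6 ± 1.73 (−1.10 ± 0.08, limma adjusted p = 2.63e-13). Comparisons among the 3 populations share libraries and are given side by side.

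In 23-NC itself Marcksl1, at 55.1 ± 11.2 FPKM before induction, fell to 34.1 ± 1.85 (day 2), 31.4 ± 1.44 (day 4) and 21.2 ± 1.74 (day 6) (limma adjusted p of at most 1.71e-06), and Cnp fell from 6.75 ± 0.598 to 3.81 ± 0.286 at day 6 (−0.61 ± 0.10, limma adjusted p = 4.93e-07). Slc12a7 rose from 13.5 ± 1.07 FPKM to 23.1 ± 0.16, 20.3 ± 2.96 and 26.0 ± 1.58 (limma adjusted p of at most 2.22e-07). Fgf10 fell to 1.82 ± 0.32 FPKM at day 6 from 4.08 ± 0.374 (limma adjusted p = 7.81e-10). On day 2, 2 of the 6 genes were called higher in 23-NC than before induction (24.4% of all genes) and 3 lower (35.1%). On day 4 the count was 1 higher (30.2%) and 2 lower (42.1%), and on day 6 it was 1 higher (31.7%) and 3 lower (40.5%).

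The 7 genes lie on 5 chromosomes. In GENCODE M21 (GRCm38), Nid1 is at chr13:13437551-13512269, Slc12a7 at chr13:73733094-73816754 and Fgf10 at chr13:118669791-118792115, all on the plus strand and far apart. Chromosome 13 held 3.98% of the tested genes with a position. Cnp is at chr11:100574904-100591729 (plus), Marcksl1 at chr4:129513581-129515985 (plus), Cd302 at chr2:60251993-60284488 (minus) and Rhox5 at chrX:37804842-37808876 (plus). All are annotated as protein-coding.

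The nearest genes expressed in WT day 0 on each side of the 7 were also compared at day 0. They need not be adjacent, and those of Rhox5 lay 380.9 to 724.4 kb away. Among the 42 nearest genes expressed in WT day 0, 3 on each side of each gene, 0 were at or below 0.5 FPKM in Tet1-KO day 0. Such values were rare in general (7 of 8028 genes at 2 FPKM or more in every WT library), so a count of 0 says little. The median difference of the 42 was 0.14 log2 units, 1 was called lower (2.38%, against 11% of all genes tested) and 4 higher (9.52%, against 5.83%). The 1 lower neighbour was Lpcat1, a lysophospholipid acyltransferase gene 217 kb from Slc12a7, at 3.26 FPKM against 9.24 in WT (−1.31, limma adjusted p = 0.00265). Hdac1, the histone deacetylase gene 0.119 kb from Marcksl1, stood at 63.5 FPKM in Tet1-KO and 87.8 in WT (limma adjusted p = 0.341). March7, 1.32 kb from Cd302, stood at 16.2 and 25.9 FPKM (limma adjusted p = 0.172). Dnajc7 overlaps Cnp in the annotation and stood at 62.99 and 79.8 FPKM (limma adjusted p = 0.415), and without strand in the counting, reads of the overlap cannot be told apart. At the loci of Marcksl1, Cd302 and Cnp, the gene within a few kilobases thus kept most of its transcript while the gene next to it was near 0.

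**Figure D5:**
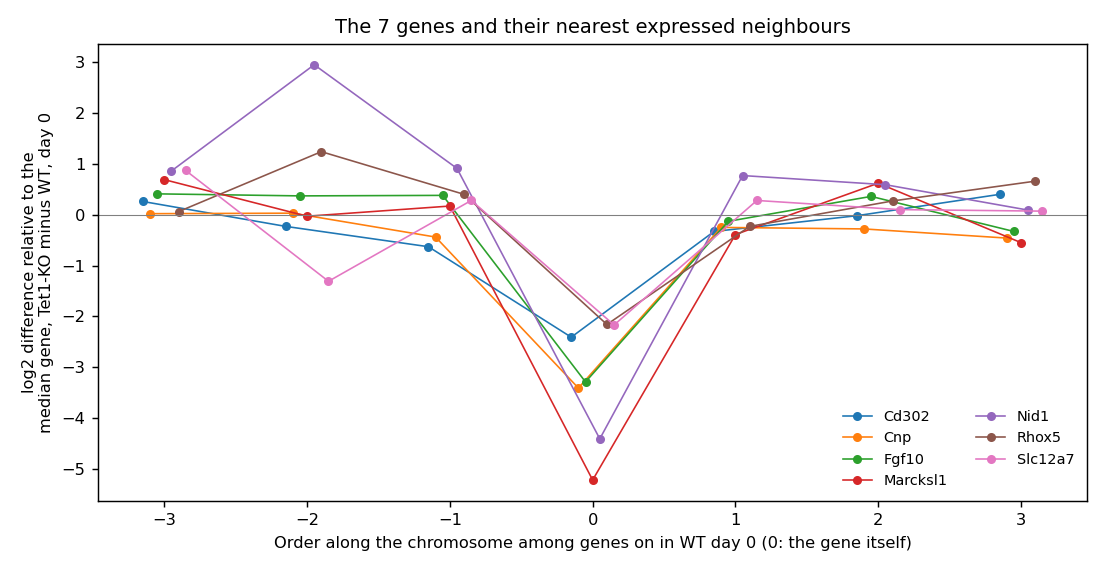
Difference of mean log2(FPKM + 1) between Tet1-KO and WT at day 0, relative to the median gene, for each of the 7 genes (position 0) and its 3 nearest expressed neighbours on each side, joined by a line per locus. The 7 genes lie between −2.16 and −5.22, and their neighbours between −1.31 and 2.95.

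Among relatives and partners of the 7 genes, some were called lower or higher in Tet1-KO at day 0 and others were not called. The list of 13 other Rhox genes had no library at 1 FPKM or more in either table, with 0.25 FPKM as the highest value. Among the Rhox genes looked at, Rhox5 alone thus reached 1 FPKM, and it did so in the first table only. Nidogen 2 (Nid2), the paralog of Nid1, was expressed in all 60 libraries. At day 0 it was lower in Tet1-KO than in WT, at 74.4 ± 25.9 FPKM against 239 ± 31.4 (−1.63 ± 0.42, limma adjusted p = 0.00922), and it was not off. Of 20 basement membrane genes tested besides Nid1, 6 were lower (11% of all genes) and 1 higher (5.83%) in Tet1-KO at day 0, with a median of −0.63. Lamb1, the laminin β1 chain, was lower on all days, at 4.49 ± 0.61 FPKM against 39.1 ± 3.83 at day 0 (−2.78 ± 0.45, limma adjusted p = 0.00024). Lamb2 was higher at day 2 (62.7 ± 24.1 against 11.2 ± 1.05 FPKM, limma adjusted p = 0.000286) and at days 4 and 6. On day 2 the list had 4 genes higher (16.2% of all genes) and 2 lower (6.76%). On day 4 there were 3 higher (9.79%) and 2 lower (6.22%), and on day 6 there were 2 higher (15.7%) and 9 lower (29.7%).

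In the FGF list, 18 genes besides Fgf10 were tested. Fgf7, which encodes another ligand of FGFR2, was called higher in Tet1-KO at days 2, 4 and 6 and not at day 0. It gave 88.1 ± 59.7 FPKM against 3.83 ± 1.50 in WT at day 2 (3.71 ± 0.67, limma adjusted p = 0.000966), 41.7 ± 38.0 against 2.88 ± 0.774 at day 4 (limma adjusted p = 0.00677) and 51.7 ± 40.6 against 12.98 ± 4.52 at day 6 (limma adjusted p = 0.0471). The spread between the Tet1-KO libraries of Fgf7 was wide. The receptor gene Fgfr1 was lower on the same 3 days, with 59.7 ± 7.47 FPKM against 150 ± 13.2 at day 2 (limma adjusted p = 0.00307). In the list as a whole 4 genes were lower on day 0 (11% of all genes), 2 on day 2 (6.76%), 3 on day 4 (6.22%) and 5 on day 6 (29.7%). Higher were 0 on day 0 (5.83%), 1 on day 2 (16.2%), 3 on day 4 (9.79%) and 1 on day 6 (15.7%).

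Marcks, the paralog of Marcksl1, and Basp1, which encodes another lipid-binding substrate of protein kinase C, were not called lower in Tet1-KO on any day. Marcks was higher at day 2 (72.6 ± 13.5 FPKM against 37.1 ± 4.83, limma adjusted p = 0.0305), day 4 (46.8 ± 18.0 against 14.3 ± 1.03, limma adjusted p = 0.00243) and day 6 (110 ± 44.3 against 45.5 ± 14.8, limma adjusted p = 0.00344). Of the 8 tested genes of cation-chloride cotransport and its kinases besides Slc12a7, 1 was called at day 0, lower (11% of all genes). Slc12a4, which encodes the related cotransporter KCC1, was at 7.84 to 42.84 FPKM in the first table and higher in Tet1-KO at day 2 (30.5 ± 9.17 against 14.3 ± 2.65, limma adjusted p = 0.0278). Of 3 myelin genes tested besides Cnp, 1 was lower at day 0 (11% of all genes) and none was called at days 2 and 4. At day 6, 1 of them was higher (15.7%). Among 5 tested relatives of Cd302, the C-type lectin genes Thbd (4.39 ± 0.871 against 23.5 ± 0.983 FPKM, limma adjusted p = 0.00437) and Clec11a (3.46 ± 0.476 against 18.6 ± 1.09, limma adjusted p = 5.17e-05) were lower in Tet1-KO at day 0. Ly75, another gene of the mannose receptor family, was at most 0.41 FPKM in the first table.

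Of 8 tested genes of the TET and DNMT list, 4 were lower in Tet1-KO at day 0 (11% of all genes) and 3 on each later day (6.76%, 6.22% and 29.7%), with 1 higher at day 4 (9.79%). Tet3 stood at 2.54 ± 0.121 FPKM against 5.98 ± 0.537 at day 0 (limma adjusted p = 0.00155) and Dnmt3a at 3.63 ± 0.652 against 9.6 ± 0.583 (limma adjusted p = 0.00019). Only 2 of 25 germline genes that are kept methylated in somatic cells passed the filter, and neither was called at day 0. At day 0, 1 of 15 adipocyte markers was higher in Tet1-KO and 2 of 14 mesenchymal progenitor markers were lower. Adipocyte markers were lower for 10, 6 and 13 genes at days 2, 4 and 6 (6.76%, 6.22% and 29.7% of all genes). Mesenchymal progenitor markers were higher for 10, 10 and 6 (16.2%, 9.79% and 15.7%) and 1 was lower at day 6. From day 2 on, the 7 genes were thus compared in cells that also differed in these markers, whose part was not tested. Markers of endothelial, epithelial and myogenic cells were scarce at day 0, with summed levels of at most 2.27, 0.67 and 6.78 FPKM. Summed levels of 10 macrophage and leukocyte markers were 13.66 to 15.1 FPKM in WT and 45.46 to 54.58 in Tet1-KO, from 3 genes that reached 1 FPKM, and 2 of the 10 were at 0 in all libraries of each group. For 8 glial markers they were 52.68 to 60.01 FPKM in WT and 36.53 to 51.86 in Tet1-KO, with 3 at 0 in all libraries of each group. The part of these cell types in the results was not tested.

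Across the 24 libraries of the first table the genes moved together, as their choice requires, with Pearson's r of 0.564 (Marcksl1 and Cd302) to 0.985 (Nid1 and Slc12a7) between pairs. The genes most like them there were Nudt16, with r = 0.981 to Slc12a7 and 0.975 to Nid1, Pbxip1, with r = 0.974 to Cnp, Adamts9, with r = 0.966 to Fgf10, Vegfc, with r = 0.960 to Marcksl1, and Cdk6, with r = 0.951 to Cd302 and 0.941 to Rhox5. Across the 36 libraries of the second table the pairs ran from −0.479 to 0.753. There the nearest genes were Abcc3 for Cd302 (r = 0.962), Mical3 for Slc12a7 (0.946), Pik3r3 for Cnp (0.910), Kdm5b for Nid1 (0.901), Homer3 for Marcksl1 (0.90) and Dnajc25 for Fgf10 (0.839), and none of them was the nearest in the first table. These correlations are on log2(FPKM + 1), and libraries of a group share day and population.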

How the data were processed

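Polyadenylated RNA of 60 samples was sequenced after Illumina TruSeq library preparation, per the labels' protocols. The values are FPKM that the authors deposited in 2 tables with 2 decimals. Reads were processed with STAR 2.4.1a and RSEM on mm10, per the submitters' processing notes, which give no roles, and whether counting used strand is not given in the sources used here. Read counts were not analysed here.

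Groups follow the sample titles. In 11 samples of 23-Tet1 the genotype tag differed from the title, and the title was used. The genes and lists were chosen with earlier results of these data known, some lists after the data had been seen. The tables were analysed apart. A gene was tested if 3 or more libraries of its table reached 1 FPKM. The test was made on log2(FPKM + 1), in a single model per table that held every group, in limma 3.58.1 (R 4.3.3, trended empirical Bayes, two-sided, Benjamini-Hochberg over all genes tested), and an adjusted p under 0.05 was called. The test was tested on simulated data. A difference is printed relative to the median gene, and its p belongs to the difference as fitted. Changes from day 0 compared between populations were added after seeing the data. The alternatives tried were to fit the compared groups only, to scale by median ratios or by quantiles, to drop the filter, to add 0.1 FPKM in place of 1, a replicate block, each library left out, and Tet1-KO day 6 replicates 2 and 3 left out.

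Named genes were the 7, Tet1, up to 2 genes per list and direction with the largest called difference and at least 5 FPKM, the 3 most correlated genes, 3 expressed neighbours per side and those nearest the limit of 0.5 FPKM. Gene levels given for Ly75, Gapdh, Rpl41 and Actb and the range of Slc12a4 were chosen after their values were seen. Positions are from GENCODE M21, promoters from RefSeq GRCm38.p6 (all 7 matched). Python 3.11.15, numpy 2.4.6, pandas 2.3.3 and matplotlib 3.10.9 were used. Depth per library limits the precision of values near 0, and no library pair was identical.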

Additional observations from a re-analysis of the deposited data

Results flagged for a closer look

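For 6 genes the difference from 23-NC at day 0 and on a later day was not the same, by limma's test of that change in the second table (all values as fitted, not relative to the median gene). In 23-Tet1 from day 0 to day 2 the difference of Marcksl1 went from −0.98 to 0.98 log2 units, a change of 1.96 ± 0.14 (SE, limma adjusted p = 1.4e-12). That of Fgf10, the growth factor gene, went from −1.24 to 0.25, a change of 1.50 ± 0.12 (limma adjusted p = 2.8e-11). That of Slc12a7, the cotransporter gene, went from −0.41 to 0.18, a change of 0.59 ± 0.11 (limma adjusted p = 3.16e-05). These 3 were called on both days with opposite signs. For Cnp, which was not called at day 0, the difference went from −0.10 to 1.14, a change of 1.24 (limma adjusted p = 1.56e-08), and for Nid1 the change was 0.58 (limma adjusted p = 0.0139). From day 0 to day 6 the change in 23-Tet1 was 1.91 for Fgf10, to a difference of 0.66, and 0.93 for Slc12a7, to 0.52. It was 0.89 for Cnp, 0.73 for Marcksl1 and 0.80 for Nid1 (limma adjusted p of at most 0.000854 for the 5). Of all genes tested, 27% were called more positive and 26.9% more negative to day 2, and 29.1% and 32.3% to day 6.

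In 23-CATA the change from day 0 to day 2 was 1.09 for Cd302, 0.47 for Fgf10 and −0.53 for Slc12a7 (limma adjusted p of at most 0.00253). From day 0 to day 6 it was 1.70 for Cd302, 0.67 for Cnp, 0.74 for Fgf10, 0.61 for Marcksl1, −0.47 for Nid1 and −0.72 for Slc12a7 (limma adjusted p of at most 0.0379). Such calls were common: of 12231 genes tested, 2434 were called more positive and 3730 more negative to day 2, and 3363 and 4403 to day 6. The day 6 call of Nid1 was lost under both scalings, without a filter and with the compared groups only. It was also lost in several fits with a library left out (limma adjusted p of up to 0.204, without 23-NC day 0 replicate 1). All these changes share the 23-NC libraries of day 0, and those of a population share its own day 0 libraries.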

How the results depend on the processing

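Over 143 results for the 7 genes (those called, or larger than their SE), 1716 of 1884 values under an alternative kept direction and side of the threshold, 115 lost a call, 45 gained one and 8 changed sign. Values here are differences as fitted, not relative to the median gene. The sign changes were Marcksl1, Tet1-KO against WT at day 6, without Tet1-KO replicate 2 (0.02, in a range of −2.90 to 0.02 with a library left out; relative to the median gene it was above 0 without replicate 1 as well, at 0.27); Slc12a7 in WT at day 2 (0.22, quantile); Fgf10 in WT at day 4 (0.20, quantile, and 0.05, median-ratio); Slc12a7 in 23-CATA against 23-NC at day 0 (−0.01, quantile); and in 23-NC at day 4 Fgf10 (0.06, quantile) and Nid1 (−0.02, quantile, and −0.07 without day 0 replicate 1, in a range of −0.07 to 0.33). None of the 8 passed the test.

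Counts of the 7 genes called in WT were 2, 4 and 2 at days 2, 4 and 6. They were 0, 1 and 1 with a pseudocount of 0.1, 5, 7 and 4 with the compared groups only, and, once Tet1-KO day 6 replicates 2 and 3 were left out, 4, 7 and 5. At day 2 the count was 1 without a filter, 4 with quantile normalisation and 1 to 1 with each library left out. In 23-Tet1 against 23-NC at day 2 it was 5, 3 under either scaling and 3 to 4 with a library left out. In 23-NC it was 5 at day 2 (2 with quantile normalisation, 3 with the compared groups only, 3 to 5 with a library left out) and 3 at day 4 (3 to 5). For Tet1-KO against WT at day 6 it was 5, and 2 with the compared groups only. The cause of these shifts was not tested.

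Over all genes, Tet1-KO against WT gave 2733, 1907 and 5412 calls at days 2, 4 and 6. Without Tet1-KO day 6 replicates 2 and 3 the first 2 were 5263 and 4195, with the compared groups only days 4 and 6 gave 672 and 1042, and with a library left out days 2 and 4 gave 893 to 3858 and 535 to 3409. The lowest came without Tet1-KO replicate 1 at day 2 and replicate 3 at day 4. Higher genes were 34.7%, 70.5%, 61.1% and 34.6% of calls at days 0, 2, 4 and 6 as deposited, and 45%, 49.4%, 47.4% and 48.8% with quantile normalisation.

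Replicate numbers did not pair the samples: deviations of same-numbered libraries correlated at −0.468 to 0.42, and in 1 of 22 comparisons all 3 pairs passed 0.1. The fit with a replicate block left the calls of the 7 genes as they were, with 7, 6 and 5 called in Tet1-KO against WT at days 2, 4 and 6, and gave 3038, 2195 and 5641 calls over all genes.

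Values near 0 rest on few fragments, and FPKM without counts allow no interval for them.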
